A study of Homo sapiens with 9 samples.

Results

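Brain-derived neurotrophic factor (BDNF) was examined in A498 cells together with 5 other genes of its family, the ligand NTF3 and the receptors NTRK2, NTRK3, NGFR and SORT1. These 6 genes were chosen by name from 27673 genes in the count table, because BDNF was among the 3 largest rises in the shARNT libraries relative to shControl, in a ranking limited to called and more abundant genes whose groups did not overlap. The values of that comparison therefore selected the group, and they are given below as a description without a test. A498 is an established human cell line of clear cell renal cell carcinoma (ccRCC), labelled as renal cell carcinoma. Polyadenylated RNA was sequenced from cells that carried a control hairpin (shControl, genotype labelled WT), a hairpin against BMAL1 (shBMAL1, labelled BMAL1 knockdown) or one against ARNT (shARNT, labelled ARNT knockdown), each in 3 biological replicates, which makes 9 libraries. In each group the hairpin came from lentivirus in a PLKO.1 vector and the cells had been selected and kept in puromycin, so all groups share infection and drug. The names of the groups state a single hairpin target each, and the labels do not say how many hairpins or clones were used.

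Neurotrophins are secreted growth factors made as longer precursors that proteases cut to the mature form. Mature ligands bind receptor tyrosine kinases of the Trk family, with TrkB (NTRK2) preferring BDNF and NT-4 and TrkC (NTRK3) preferring NT-3, while the precursors bind the p75 receptor (NGFR) together with sortilin (SORT1) or a related receptor. The system is best known for the survival and plasticity of neurons, and BDNF is also transcribed outside the nervous system from several alternative promoters that activity-dependent and repressor proteins control. ARNT and BMAL1 are bHLH-PAS proteins, which bind DNA as dimers at short sites built around the letters CGTG.

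The table had between 35269857 and 36099083 counts per library, so depth was alike in all groups. ARNT was 9.47 ± 0.432 CPM (SD, n = 3) in shARNT against 50.5 ± 2.24 in shControl, and ARNTL, the older symbol of BMAL1 in the table, was 5.02 ± 0.789 CPM in shBMAL1 against 16.3 ± 0.395 in shControl, so each target was lower where its label says. ARNT was also lower in shBMAL1 than in shControl (32.3 ± 1.52 CPM, log2 fold change -0.65, adjusted p = 1.54e-08 by edgeR), and ARNTL was higher in shARNT (23.8 ± 1.31 CPM, 0.55, adjusted p = 8.27e-06). CPM are counts scaled by library size after normalisation by trimmed means of M values (TMM). All 8 kidney epithelial markers passed the filter on low counts, and the shControl libraries had summed levels of 7998 to 8053 CPM, the shBMAL1 libraries 5918 to 6406 and the shARNT libraries 2101 to 2257. Most of that sum was VIM, which mesenchymal cells also express (5974, 4309 and 812 CPM in the group means), while PAX8 rose in shARNT (to 100 ± 5.65 CPM, log2 fold change 1.48, adjusted p = 1.99e-14) and KRT18 was not called there (566 and 563 CPM). Of 8 neuronal markers 3 passed, with sums of 77.8 to 83.6, 38.7 to 42.8 and 24.6 to 27.9 CPM in the same order, nearly all from TUBB3, and STMN2 was at 0 in every library. Glial markers (2 of 5 passed, SOX10 and S100B at 0) summed to 9.58 to 11.3, 15.7 to 17.4 and 10.3 to 11.9 CPM. Markers of fibroblasts, endothelium and leukocytes (2 of 9 passed, LUM at 0) summed to 2029 to 2143, 1787 to 1902 and 186 to 189 CPM, mostly from CD68 (1865, 1792 and 142 CPM) and otherwise from COL1A1 (237, 35.7 and 45.4 CPM), and PECAM1, CDH5, KDR and PTPRC were at most 0.232 CPM in a group mean. These marker sums moved with the groups, and their part in the values below was not tested. In such bulk RNA, fewer cells that transcribe a gene and less RNA per cell cannot be told apart.

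Because the alternative promoters are where BDNF transcription is controlled, their sequences were read from the RefSeq table of GRCh38.p14, which gives 250 bases before and 50 after each start. The table held 14 promoters for 5 of the 6 genes, 5 of them for BDNF. Both strands were searched for the E-box CACGTG, and for the cores ACGTG and GCGTG, of which the former also lies within CACGTG. The E-box was found in 1 of the 14 promoters, a BDNF promoter, beginning 42 bases before the start. It is in 7.26% of all 35116 promoters of that length. The 250 bases before that start, on the minus strand at chr11:27720780-27721029, are shown with the E-box in capitals.
BDNF promoter 2: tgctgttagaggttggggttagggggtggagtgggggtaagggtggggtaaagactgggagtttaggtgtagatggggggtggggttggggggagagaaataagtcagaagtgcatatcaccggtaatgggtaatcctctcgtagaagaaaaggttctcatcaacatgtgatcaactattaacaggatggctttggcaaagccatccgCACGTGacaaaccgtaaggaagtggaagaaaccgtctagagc

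One of the cores was in 4 of the 5 BDNF promoters and in 4 of the 9 promoters of the other genes, against 48.4% of all promoters, so its presence sets no member apart. The other matches in BDNF promoters lay outside any E-box and are shown for comparison with the E-box in windows of 29 bases on the minus strand, at chr11:27722113-27722141, chr11:27701824-27701852, chr11:27701654-27701682 and chr11:27659645-27659673, with the core in capitals.
BDNF promoter 1: cagtgagtcggtCACGTaaacagcgaggt
BDNF promoter 4, first match: gggttagcttatACGTGtgtttgctgggg
BDNF promoter 4, second match: catatgacagcgCACGTcaaggcaccgtg
BDNF promoter 5: agagcgcgcgcaCACGCgcgcgcgcacac

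BDNF promoter 3 held neither. The table counts reads per gene and does not say which promoter a transcript came from, so no value below belongs to one of these sequences, and a match is a run of letters and not a binding site.

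BDNF (ENSG00000176697, GRCh37 chr11:27676440-27743605, minus strand, protein coding) was the only 1 of the 6 genes that passed the filter on low counts. It had 32.68, 29.68 and 18.0 counts in the shControl libraries, 410.96, 306.74 and 377.3 in shBMAL1, and 519.95, 630.9 and 618.84 in shARNT. Every depleted library was thus above every control library, and every shARNT library was above every shBMAL1 library. In CPM the controls were 0.982, 0.902 and 0.545, the shBMAL1 libraries 12.0, 8.90 and 11.1, and the shARNT libraries 13.1, 16.0 and 15.6. The nearest neighbours in this order, 12.0 in shBMAL1 and 13.1 in shARNT, were closer to each other than the libraries within either group were spread. Group means were 0.809 ± 0.233, 10.7 ± 1.60 and 14.9 ± 1.54 CPM (SD, n = 3).

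In shBMAL1, BDNF was 13.0-fold higher than in shControl by the fit across all genes, or 3.70 on the log2 scale (SE 0.211), with adjusted p = 8.88e-13 from the quasi-likelihood test of edgeR. All adjusted p here are from that tool by the Benjamini-Hochberg procedure. This test uses the same shControl libraries as the comparison that chose BDNF. Genes were called at an adjusted p under 0.1, and 63.3% of the tested genes were called in this contrast, 31.9% higher and 31.5% lower, so a call by itself is common. Among genes that were called, averaged 2 or more in log2 CPM and did not overlap between groups, BDNF ranked 7 of 7537 by its rise in shBMAL1, and 24 among all 15551 genes tested. In the restricted ranking ANXA10 (5.42), AREGB (5.24) and AREG (4.97) led. In shARNT, the comparison that selected it, the fitted log2 fold change was 4.18 (SE 0.209), or 18.2-fold. SSTR5-AS1 (4.54) stood above BDNF there, FBXO32 (4.18) was just inside the limit of 3 genes and TJP3 (3.60) just outside, all in the ranking with the same restrictions. Among all genes tested BDNF ranked 29 by its rise in shARNT. Between the depletions BDNF was higher in shARNT by 0.48 on the log2 scale (SE 0.122), which is also given without a test. As background for these contrasts, 81.8% of all tested genes were called in shARNT against shControl, 40.5% higher and 41.3% lower, and 81.2% between the depletions, 40.1% higher and 41.1% lower.

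**Figure D1:**
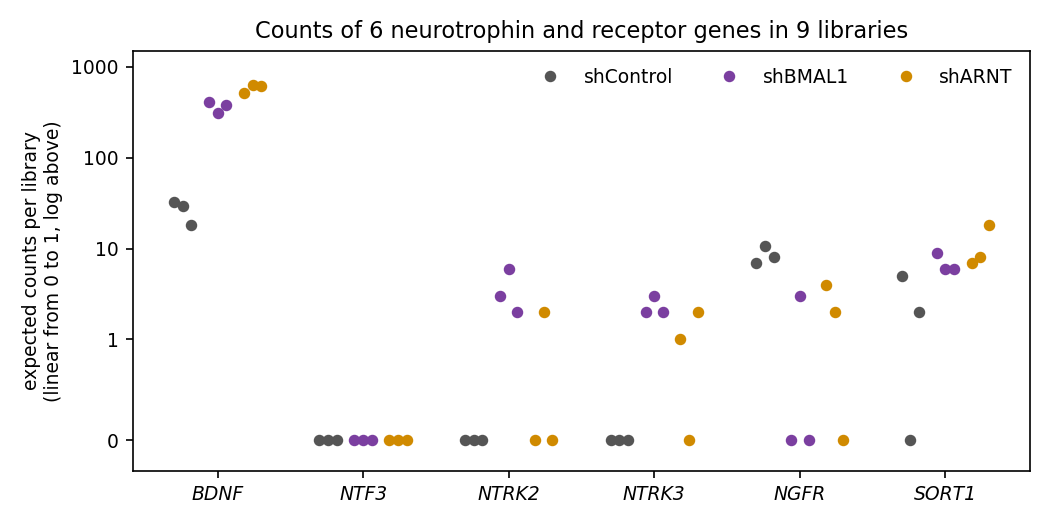
Expected counts (vertical axis, linear from 0 to 1 and logarithmic above) of the 6 genes in each of the 9 libraries, grey for shControl, purple for shBMAL1 and orange for shARNT. BDNF lies between 18.0 and 32.68 counts in shControl and between 306.74 and 630.9 in the depletions, while no other gene exceeds 18 counts in any library.

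The size of these changes depended on how reads were divided between BDNF and its antisense gene. BDNF-AS, a long noncoding RNA on the plus strand (GRCh37 chr11:27528377-27719778), overlaps BDNF, and the fractional BDNF counts and the fractional BDNF-AS counts added up to whole reads, within 0.002, in 8 of the 8 libraries that held a fraction. Reads had therefore been shared out between 2 genes on opposite strands, so strand did not separate them at this locus. The 2 names together had 192, 172 and 128 counts in shControl, 540, 489 and 544 in shBMAL1, and 785, 934 and 863 in shARNT. The sum kept the order of the groups without overlap. The share of the sum listed under BDNF was 14.1% to 17.3% in the shControl libraries, 62.7% to 76.1% after depletion of BMAL1, and 66.2% to 71.7% after depletion of ARNT. With the names summed before the fit, an alternative chosen after the fractions were seen, the log2 fold change was 1.63 in shBMAL1 (adjusted p = 3.67e-10), 2.13 in shARNT and 0.50 between the depletions. BDNF-AS alone was 4.15, 4.66 and 6.84 CPM in the mean. It was not called in shBMAL1 (0.17, SE 0.159, adjusted p = 0.382). It was higher in shARNT than in shControl (0.72, SE 0.153) and than in shBMAL1 (0.55, SE 0.150). Because its reads were shared out with BDNF, its shARNT values are given as a description without a test. How many of the reads of either name came from which strand was not tested.

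**Figure D2:**
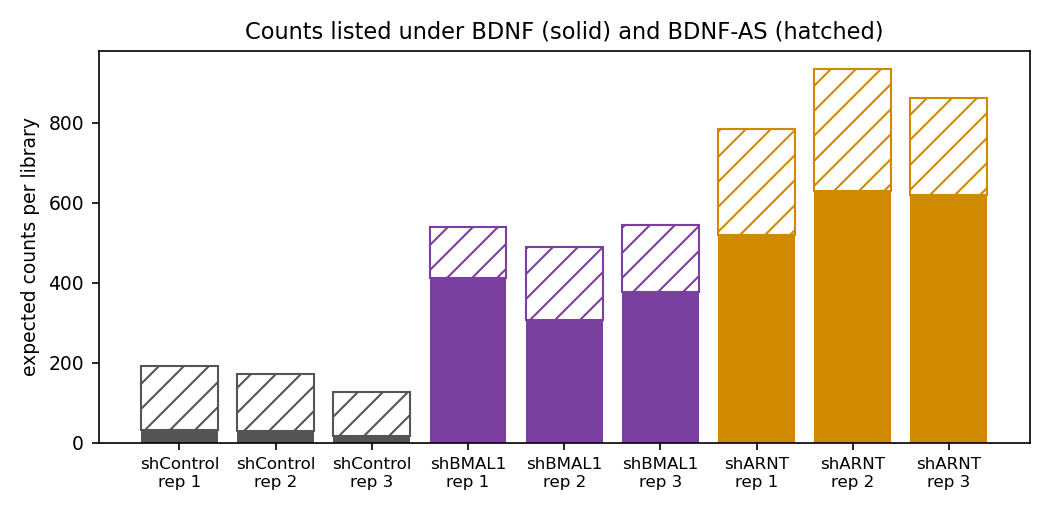
Stacked bars of the expected counts listed under BDNF (solid) and under BDNF-AS (hatched) in each library. The shControl stacks reach 128 to 192 counts, the shBMAL1 stacks 489 to 544 and the shARNT stacks 785 to 934, and the solid share grows from at most 17.3% to at least 62.7%.

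The other ligand among the 6 genes, NTF3, which encodes NT-3, had 0 counts in all 9 libraries. At these depths a count of 0 allows a level of up to 0.0756 to 0.0911 CPM per library, from the floor of 3 counts. Both Trk receptors of the group were at or near that floor. NTRK2, the gene of the BDNF receptor TrkB, had 0 counts in each shControl library, 3, 6 and 2 in shBMAL1, and 0, 2 and 0 in shARNT. NTRK3, the gene of TrkC, had 0 in each shControl library, 2, 3 and 2 in shBMAL1, and 1, 0 and 2 in shARNT. Summed over a group, with the floor of 3 counts in place of 0 for shControl, NTRK2 was 3.54-fold and NTRK3 2.26-fold higher in shBMAL1. These ratios take the shBMAL1 counts as they stand, without their counting error, and are not lower limits. Without the filter on low counts, the fit gave adjusted p = 0.0278 for NTRK2 and 0.0800 for NTRK3 in that contrast. The unfiltered fit gave much smaller p-values than the filtered one at the same fold change. For BDNF in shBMAL1 its adjusted p was 2.37e-43 beside 8.88e-13, both from edgeR. Its p-values for sparse genes may therefore be too small and are given as a description. Against shBMAL1, the summed shARNT level of NTRK2 was 0.157 times as high (95% exact interval 0.0169 to 0.720, from 2 and 11 counts) and that of NTRK3 0.370 times (0.0618 to 1.62, from 3 and 7 counts), with adjusted p = 0.119 and 0.436 without the filter. These intervals cover counting error alone, and they take each count as a separate fragment.

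The receptors of precursor forms were also sparse. NGFR, the gene of p75, had 7, 10.79 and 8 counts in shControl, 0, 3 and 0 in shBMAL1, and 4, 2 and 0 in shARNT, so all control libraries were above all depleted ones. The summed level in shBMAL1 was 0.112 times that of shControl (95% exact interval 0.0216 to 0.364, adjusted p = 0.0136 without the filter). SORT1, the gene of sortilin, had 5, 0 and 2 counts in shControl, 9, 6 and 6 in shBMAL1, and 7, 8 and 18 in shARNT. Every shBMAL1 library was above every shControl library, but the ratio of 2.90 (1.19 to 8.08) had adjusted p = 0.144 without the filter and was not called. In the contrast that chose the group, the summed shARNT levels relative to shControl were 0.193 times (0.0649 to 0.479) for NGFR and 3.94 times (1.71 to 10.5) for SORT1, given as a description. Between the depletions the ratio of shARNT to shBMAL1 was 1.73 (0.369 to 10.7, adjusted p = 0.655) for NGFR and 1.36 (0.762 to 2.47, adjusted p = 0.599) for SORT1, and both intervals span 1. The fit with the filter gave no value for any of the 6 genes but BDNF. The limit given above for p-values without the filter holds for NGFR and SORT1 too.

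Further ligand and receptor genes of the family were examined beside these 6. SORCS1 and SORCS3, receptors related to sortilin, had 0 counts in every library. NTF4, which encodes the other TrkB ligand NT-4, had 84, 92 and 86 counts in shControl, 103, 93 and 88 in shBMAL1, and 107, 104 and 111 in shARNT. Its levels of 2.64 ± 0.139, 2.77 ± 0.220 and 2.71 ± 0.0838 CPM overlapped between all groups, and no contrast was called (0.07, SE 0.160, in shBMAL1 and 0.04, SE 0.158, in shARNT, adjusted p = 0.741 and 0.837). Per kilobase of exon, BDNF was at 0.105 CPM in shControl, below NTF4 at 1.13, and at 1.38 and 1.92 CPM in shBMAL1 and shARNT, above NTF4 at 1.18 and 1.16. BDNF was thus the ligand with the higher mean level per length in the depleted groups and NTF4 in the controls. In shBMAL1 the SDs were 0.207 for BDNF and 0.0940 for NTF4, and the lead of BDNF there was no larger than its SD. The length joins all annotated exons, and the BDNF values rest on the division of reads with BDNF-AS.

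SORCS2, a sortilin-related receptor that binds the BDNF precursor, was the most abundant of the receptor genes described here, at 42.5 ± 0.961 CPM per kilobase in shControl. Its counts were 8776, 8790 and 9097 in shControl, 14865, 13929 and 14527 in shBMAL1, and 4140, 4214 and 4344 in shARNT, so the groups stood apart in opposite directions from the control. It rose by 0.65 on the log2 scale in shBMAL1 (SE 0.0383, adjusted p = 1.64e-11) and fell by 1.33 in shARNT (SE 0.0392, adjusted p = 4.77e-17), and the direct contrast gave -1.98 (SE 0.0390, adjusted p = 9.13e-20). SORL1, another receptor of that family that takes part in sorting of neurotrophin receptors and other cargo, had 65, 58 and 43 counts in shControl, 230, 253 and 327 in shBMAL1, and 289, 294 and 292 in shARNT. It rose in both depletions, by 2.24 (SE 0.172, adjusted p = 5.29e-10) in shBMAL1 and 2.14 (SE 0.171, adjusted p = 2.56e-10) in shARNT, and was not called between the depletions (-0.10, SE 0.137, adjusted p = 0.509).

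**Figure D3:**
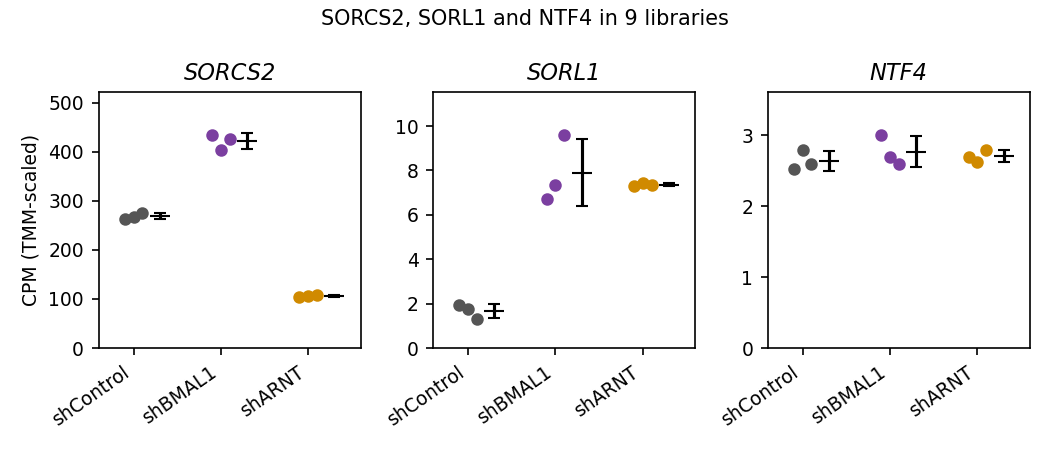
TMM-scaled CPM of SORCS2, SORL1 and NTF4, with a point for each library, and a black bar and whiskers for the mean and SD of 3. SORCS2 is lowest in shARNT and highest in shBMAL1, SORL1 is higher in both depletions, and the NTF4 groups overlap.

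Beyond the receptors, 134 genes in 7 lists covered how neurotrophins are made, sensed and answered, and 114 of them passed the filter. In shBMAL1 41 were higher, 43 lower and 30 not called, 73.7% called in all against 63.3% of all tested genes. In shARNT 43 were higher, 59 lower and 12 not called (89.5% against 81.8%), and between the depletions 40 were higher in shARNT, 59 lower and 15 not called (86.8% against 81.2%). The median log2 fold changes were 0.01, -0.19 and -0.17, beside -0.00, -0.01 and -0.01 over all tested genes. Their median absolute values were 0.36, 0.66 and 0.68, beside 0.32, 0.66 and 0.64. Under scaling by library size alone, which raised the median of all genes to 0.05, 0.23 and 0.18, the lists had 47 higher and 42 lower in shBMAL1, 52 higher and 51 lower in shARNT, and 45 higher and 49 lower between the depletions. The excess of lower over higher list genes in shARNT thus depended on the scaling. Among called genes in shARNT, the share that was higher stayed smaller in the lists than over all genes. It was 42.2% against 49.6% with TMM and 50.5% against 60.5% by library size alone. The lists were put together with earlier results of these data known, and their counts are a description. The counts of each list below stand beside shares over all tested genes of 31.9% higher and 31.5% lower in shBMAL1. In shARNT these shares are 40.5% and 41.3%. A count near such a share sets no list apart.

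Among the 15 genes for cleavage and secretion of precursors, 12 were tested, with 4 higher and 5 lower in shBMAL1 and 3 higher and 8 lower in shARNT (median -0.15 and -1.24). PCSK5 and PCSK6 encode proprotein convertases that can cut neurotrophin precursors inside the cell. PCSK6 fell from 858 ± 44.3 CPM to 556 ± 12.4 in shBMAL1 and 65.8 ± 1.90 in shARNT (log2 fold change -0.62 and -3.70, adjusted p = 5.23e-11 and 4.58e-23). PCSK5 was 296 ± 9.36 CPM in shControl, rose to 494 ± 10.2 in shBMAL1 and fell to 96.1 ± 3.66 in shARNT (0.74 and -1.62, adjusted p = 2.71e-12 and 2.62e-18). PLAT, tissue plasminogen activator, which starts extracellular cleavage of the BDNF precursor through plasmin, rose from 4.02 ± 0.666 CPM to 34.5 ± 0.490 in shBMAL1 and 6.95 ± 0.980 in shARNT (3.10 and 0.79, adjusted p = 6.85e-15 and 5.97e-06). MMP7, a matrix metalloproteinase that can cut neurotrophin precursors, rose by 1.07 in shBMAL1 and fell by 0.87 in shARNT (adjusted p = 5.47e-15 and 2.38e-14). CADPS2, which promotes release of dense-core vesicles, rose by 1.32 in shBMAL1 (adjusted p = 4.5e-13) and was not called in shARNT (-0.09, adjusted p = 0.204).

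Of the 20 regulators of BDNF transcription 18 were tested, with 6 higher and 4 lower in shBMAL1 and 11 higher and 5 lower in shARNT (median 0.05 and 0.22). ARNT2, the neuronal relative of ARNT that pairs with NPAS4, was 25.6 ± 2.70, 22.6 ± 1.12 and 10.4 ± 0.789 CPM in shControl, shBMAL1 and shARNT. It fell by 1.29 in shARNT (adjusted p = 2.35e-11). NPAS4 itself, an activity-induced activator of BDNF, was at most 0.0195 CPM in a group mean and was not tested. USF1, an E-box binding protein known to act at BDNF promoters, was 28.0 ± 1.69, 31.9 ± 1.21 and 73.5 ± 2.25 CPM, with log2 fold changes of 0.19 and 1.39 (adjusted p = 0.0105 and 8.54e-15). MEF2C, a calcium-responsive activator, rose by 0.88 and 1.38 (adjusted p = 2.62e-05 and 1.5e-08). BHLHE40, a bHLH repressor that binds E-boxes, fell from 423 ± 15.9 CPM to 283 ± 9.97 and 128 ± 15.6 (-0.58 and -1.72, adjusted p = 5.85e-08 and 8.3e-16). NFKB1, a subunit of NF-kappaB, rose in shARNT (0.92, adjusted p = 2.47e-12) and was not called in shBMAL1 (0.09, adjusted p = 0.193). MEF2A rose in shBMAL1 (0.52, adjusted p = 4.69e-06) and was not called in shARNT (0.09, adjusted p = 0.265).

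All 43 genes of Trk signalling were tested, with 16 higher and 19 lower in shBMAL1 and 15 higher and 21 lower in shARNT (median -0.04 and -0.16). In shARNT 83.7% of this list was called, close to the 81.8% of all tested genes, and in shBMAL1 81.4% against 63.3%. The median absolute log2 fold change in shBMAL1 was 0.33, beside 0.32 over all tested genes. A share called also depends on how high the counts are, which was not allowed for. KIDINS220, a membrane scaffold that binds Trk receptors, fell in both depletions (-0.56 and -1.93, adjusted p = 1.91e-08 and 2.84e-17). The adaptor IRS2 fell by 2.00 in shARNT (adjusted p = 3.02e-16) and was not called in shBMAL1 (0.01, adjusted p = 0.901), while IRS1 rose by 0.77 in shBMAL1 and fell by 0.80 in shARNT (adjusted p = 4.98e-10 and 1.66e-10). GRB2, the adaptor that links Trk receptors to Ras, rose by 1.02 in shARNT (adjusted p = 1.02e-12) and was not called in shBMAL1 (-0.04, adjusted p = 0.584). CRKL, an adaptor, fell by 0.84 and 0.37 (adjusted p = 4.74e-09 and 6.64e-05), and CAMK2G, a calcium-dependent kinase, fell by 0.87 in shBMAL1 (adjusted p = 8.75e-09) and was not called in shARNT (-0.12, adjusted p = 0.156). MAPK3, which encodes ERK1, was 165 ± 2.62, 184 ± 10.2 and 80.5 ± 0.474 CPM (0.15 and -1.04, adjusted p = 0.00488 and 1.44e-14).

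Of 24 genes of p75 signalling 22 were tested, with 9 higher and 9 lower in shBMAL1 and 11 higher and 10 lower in shARNT (median 0.10 and 0.06). RIPK2, a kinase that binds the p75 death domain, rose from 46.1 ± 2.22 CPM to 124 ± 4.72 and 143 ± 2.63 (1.43 and 1.63, adjusted p = 3.42e-15 and 3.49e-17). BEX3, listed as NGFRAP1, which interacts with p75, rose by 0.90 and 0.89 (adjusted p = 1.81e-12 and 2.93e-13), and the apoptosis effector BAX by 0.65 and 1.80 (adjusted p = 1.32e-08 and 2.53e-16). RHOA, the GTPase that p75 regulates, fell by 0.14 and 1.18 (adjusted p = 0.00309 and 2.6e-16), and MAGED1, which binds p75, rose by 0.10 in shBMAL1 and fell by 0.83 in shARNT (adjusted p = 0.0136 and 7.63e-15). The γ-secretase subunits, which cut p75 within the membrane, did not move together. APH1A fell by 1.34 and 0.49 (adjusted p = 4.69e-14 and 3.98e-08), NCSTN rose by 0.17 and fell by 1.02 (adjusted p = 0.000328 and 7.97e-16), and PSENEN was not called in shBMAL1 (0.11, adjusted p = 0.118) and rose by 1.68 in shARNT (adjusted p = 2.15e-16). LINGO1, a partner of p75, was singled out after its values were seen, because it had 12, 10 and 16 counts in shControl, 0 in each shBMAL1 library, and 0, 0 and 2 in shARNT. With the floor of 3 counts in place of 0 for the shBMAL1 group, LINGO1 was 13.1-fold lower there. This ratio leaves out the counting error of shControl and is not a lower limit.

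Of 9 neurotrophin-responsive genes 6 were tested, with 2 higher and 1 lower in shBMAL1 and 2 higher and 4 lower in shARNT (median 0.29 and -1.56). EGR1, an immediate early transcription factor, was 7.39 ± 1.69, 5.51 ± 0.204 and 0.488 ± 0.148 CPM (-0.42 and -3.91, adjusted p = 0.0289 and 1.23e-12). EGR2, of the same family, was 5.15 ± 0.255, 6.02 ± 0.268 and 0.219 ± 0.153 CPM, fell by 4.53 in shARNT (adjusted p = 1.65e-12) and was not called in shBMAL1 (0.23, adjusted p = 0.254). FOS and VGF, a secreted neuropeptide precursor, rose in shBMAL1 (0.54 and 0.69, adjusted p = 0.0142 and 3e-05) and fell in shARNT (-1.07 and -2.04, adjusted p = 5.6e-05 and 2.94e-11). The genes higher in shARNT, named after their values were seen, were NR4A1, a nuclear receptor (0.45, adjusted p = 0.000125), and NPTX2, a neuronal pentraxin (1.19, adjusted p = 0.000866). The EGR1 call in shBMAL1 was lost without shControl replicate 1 (-0.27, adjusted p = 0.194). Under library size alone these 6 genes kept the direction of each call.

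Other neurotrophic factors and their receptors were measured for comparison with BDNF. Of these 16 genes 9 were tested, with 2 higher and 4 lower in shBMAL1 and 0 higher and 9 lower in shARNT, where the median was -0.96. Over all tested genes 40.5% were higher and 41.3% lower in shARNT. GDNF had 0 counts in every library. ARTN, a ligand of the GDNF family, was 1.78 ± 0.695, 0.994 ± 0.136 and 0.219 ± 0.182 CPM (-0.84 and -3.01, adjusted p = 0.0403 and 1.54e-06), and its shBMAL1 call was lost without shControl replicate 3 (-0.48, adjusted p = 0.296) or shBMAL1 replicate 2 (-0.76, adjusted p = 0.116). GFRA2, the co-receptor of neurturin, had 168, 146 and 126 counts in shControl, 29, 57 and 42 in shBMAL1, and 0, 3 and 0 in shARNT. Its summed level in shARNT was 0.00569 times that of shControl (95% exact interval 0.00117 to 0.0167). LIF, a cytokine that supports neurons, was 75.5 ± 4.85, 72.2 ± 6.60 and 45.0 ± 0.441 CPM (-0.06 and -0.75, adjusted p = 0.384 and 8.6e-10), and its receptor LIFR fell by 0.61 and 0.96 (adjusted p = 0.000626 and 2.11e-06). MANF, a factor secreted under stress of the endoplasmic reticulum, rose by 0.40 in shBMAL1 and fell by 1.00 in shARNT (adjusted p = 9.64e-05 and 2.44e-10). IL6ST, the shared receptor subunit gp130, rose by 0.43 in shBMAL1 (adjusted p = 2.83e-07), and its fall in shARNT (-0.13, adjusted p = 0.0214) was not called without shControl replicate 1 (adjusted p = 0.139) or shARNT replicate 1 (0.108) and turned to a called rise of 0.10 under library size alone (adjusted p = 0.0658). By edgeR with TMM scaling none of the 9 was higher in shARNT, and the count of higher genes was also 0 at an unadjusted p under 0.05 and by DESeq2, but IL6ST was called higher under library size alone. The medians of this list and of the p75 list were the same with GFRA2 and LINGO1 at the ratio of their summed counts.

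**Figure D4:**
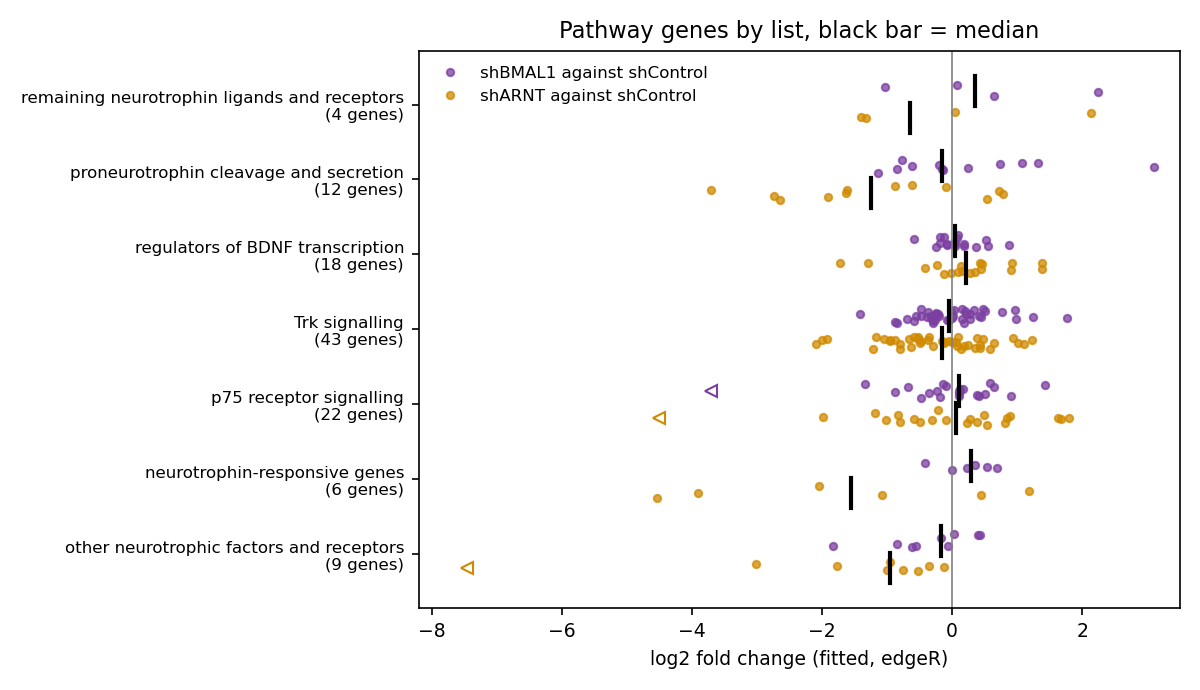
Log2 fold changes (horizontal axis) of the tested genes of the 7 lists, a point for each gene, purple for shBMAL1 and orange for shARNT against shControl, with a black bar at the median. Open triangles mark LINGO1 and GFRA2 where a group had at most 3 counts, placed at the ratio of summed levels and not at the fitted value. Where the group had 0 counts, the floor of 3 counts stands in for it. The shARNT medians lie at -1.24 for cleavage and secretion, -1.56 for responsive genes and -0.96 for other neurotrophic factors, and the shBMAL1 medians between -0.17 and 0.36.

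Genes that lie near BDNF on chromosome 11 were compared with it. Of 11 other genes that start within 1 Mb of the BDNF start, 6 were tested. In shBMAL1 3 were higher and 0 lower (31.9% of all genes were higher), in shARNT 5 higher and 0 lower (40.5% higher), and between the depletions 3 higher and 2 lower (40.1% higher and 41.1% lower). The genes higher in shARNT than in shControl and than in shBMAL1 include BDNF-AS. Its reads were shared out with BDNF, so its values are not separate from those of BDNF. Its part in the shARNT counts is therefore a description. The counts of lower genes against shControl were also 0 at an unadjusted p under 0.05 and by DESeq2. Against shControl each of the 6 changed less than BDNF in both depletions, whereas between the depletions LGR4 (-0.81), LIN7C (0.79) and BDNF-AS (0.55) differed by more than BDNF (0.48). LGR4, a receptor of R-spondins, had the largest change in shBMAL1, from 54.0 to 114 CPM (1.08, SE 0.0482, adjusted p = 2.52e-13), and was 65.1 CPM in shARNT (0.27, adjusted p = 4.61e-05). LIN7C, a scaffold protein gene, was higher in shARNT (0.67, adjusted p = 3.94e-06) and not called in shBMAL1 (-0.11, adjusted p = 0.380). KIF18A, a mitotic kinesin, was higher in both (0.43 and 0.52, adjusted p = 0.00251 and 0.000218), METTL15 in shBMAL1 alone by its call (0.41, adjusted p = 0.000389, and 0.09, adjusted p = 0.321), and CCDC34 in shARNT (0.27, adjusted p = 0.0177) but not in shBMAL1 (0.02, adjusted p = 0.891). METTL15 was lower in shARNT than in shBMAL1 (-0.31, adjusted p = 0.0021), which was not called under library size alone (-0.12, adjusted p = 0.185). The sixth was BDNF-AS, with the values above. The CCDC34 call in shARNT was lost without shControl replicate 2 (0.18, adjusted p = 0.118).

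**Figure D5:**
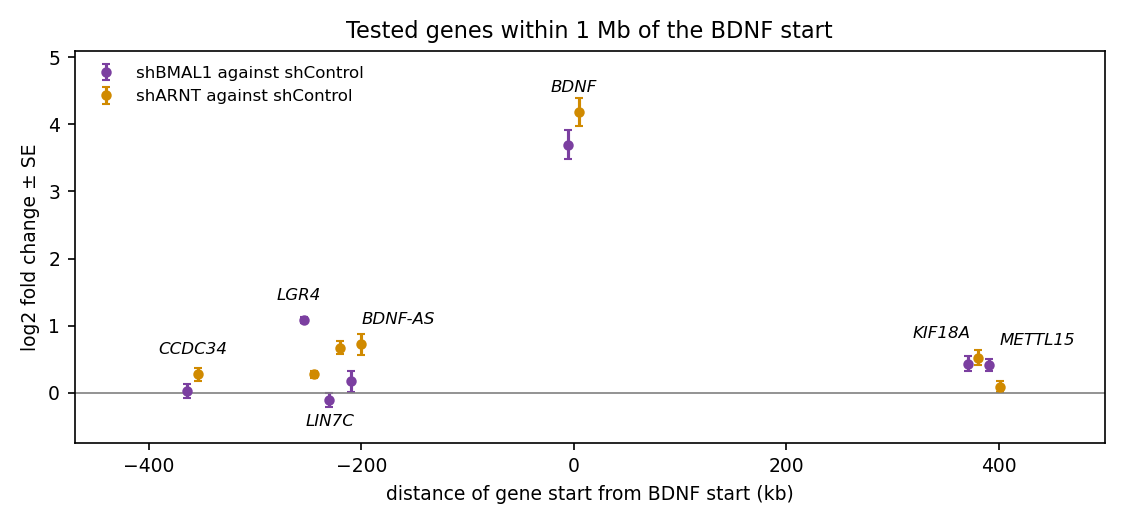
Log2 fold change against shControl with its SE (vertical axis) by distance of each gene's start from the BDNF start in kilobases (horizontal axis, towards higher coordinates on the right), purple for shBMAL1 and orange for shARNT. Pairs of genes with nearly the same start are set apart slightly to be seen. BDNF stands at 3.70 and 4.18, and its tested neighbours lie between -0.11 and 1.08.

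The genes whose pattern over the 9 libraries was most like that of BDNF were found by the Euclidean distance of log2 CPM, each library taken relative to the gene's shControl mean. Among 13432 genes that averaged 0 or more in log2 CPM the median distance was 9.61. The nearest were SSTR5-AS1 at 1.78, FBXO32 at 2.47, PHOSPHO1 at 2.94, FRAT1 at 3.33 and PPM1H at 3.34. Each of them rose in both depletions, which their choice by closeness to BDNF largely fixed in advance. Like BDNF, each was also higher in shARNT than in shBMAL1 in the mean. SSTR5-AS1, an antisense RNA whose reads may be shared with its partner gene, was 0.696 ± 0.135, 5.04 ± 0.457 and 16.2 ± 1.37 CPM. FBXO32, which encodes the ubiquitin ligase subunit atrogin-1, was 3.83 ± 0.620, 18.6 ± 1.33 and 69.3 ± 7.71 CPM. PHOSPHO1, a phosphatase of mineralising tissue, was nearest to BDNF in the step between the depletions, with 0.141 ± 0.0351, 1.11 ± 0.233 and 1.59 ± 0.242 CPM and a difference of 0.52 beside 0.48 for BDNF. FRAT1, a regulator of Wnt signals, was 0.201 ± 0.121, 0.936 ± 0.301 and 2.73 ± 0.455 CPM, and PPM1H, a protein phosphatase, 1.12 ± 0.265, 4.49 ± 0.986 and 12.7 ± 0.576 CPM. The likeness rests in part on the comparison that chose BDNF, and the first pair of these genes were, with BDNF, the 3 largest rises of its restricted ranking.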

How the data were processed

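RNA from 9 cultures of A498 cells (shControl, shBMAL1 and shARNT, n = 3) was sequenced as stranded paired-end libraries on a BGISEQ-500. The deposited values were expected counts, total reads per gene without normalisation. The study's methods name SeqMan NGen and ArrayStar with GRCh37, whereas the submitters' processing notes name hg38, STAR and DESeq2. The row order of the table had 2 of 17492 neighbouring pairs out of order by over 500 kb on GRCh37 and 18 on GRCh38.p14. The use of strand and of read pairs in counting was not given in the sources used here. Per the file, 0.05 stood for no reads and was set to 0. The 27716 rows gave 27673 genes after rows of 43 repeated names were summed, with 28 rows named by a date kept apart. Expected counts were rounded for testing.

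All 9 libraries entered 1 fit in edgeR 4.0.16 (R 4.3.3; limma 3.58.1) with TMM scaling, filterByExpr (15551 genes) and the quasi-likelihood test, with calls at a Benjamini-Hochberg adjusted p under 0.1. SEs came from the fitted model and the quasi-likelihood dispersion. The common dispersion was 0.003106, and the procedure was tested on simulated data. p-values measure the spread between the labelled biological replicates. Alternatives were other scaling, DESeq2 1.42.0, no filter, the replicate number as a block, a minimum fold of 1.5, halved counts, only the libraries compared, each library left out, and BDNF with BDNF-AS summed. Ratios of sparse genes have exact intervals at 95% from summed counts. The intervals take each count as a separate fragment and would be too narrow if both reads of a pair were counted. Positions are from GENCODE release 44 lifted to GRCh37. Symbols matched directly for 21072 genes, by an older symbol for 1456, and not for 5145. Promoter sequences are from RefSeq (GRCh38.p14), and tables were handled in Python 3.11.15.

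The members and all gene lists were chosen with earlier results of these data known. Named were the members, the remaining ligands and receptors, up to 4 called genes with the smallest p per list and contrast, ARNT2, NPAS4, genes within 1 Mb of the BDNF start, the 5 genes most like BDNF, and both targets. A few genes of this rule are not reported here, but they remain in the counts of the lists. For mean counts of 10 to 50, the chi-square per gene between replicates of a group was 2.12 to 2.46, and none were merged. This measure takes each count as a separate fragment. Counting both reads of a pair would raise it, so it cannot say whether replicates differed by more than counting noise.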

Additional observations from a re-analysis of the deposited data

Results flagged for a closer look

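Of the named genes, 11 were called in opposite directions in the depletions, higher in shBMAL1 and lower in shARNT, with a direct contrast of shARNT with shBMAL1 that was also called (edgeR, adjusted over all genes). The single direction holds for the named genes only. Other genes of the same lists were called the other way, among them HRAS (-0.33 in shBMAL1 and 0.93 in shARNT), PIK3CA (-0.70 and 0.43) and MAP2K2 (-0.47 and 0.59). How many of all tested genes were called in opposite directions was not counted, so the 11 are a description and cannot be said to be many or few. Of all tested genes 63.3% were called in shBMAL1, 81.8% in shARNT and 81.2% between the depletions. The receptor gene SORCS2 differed by -1.98 on the log2 scale. Among genes for cleavage of precursors, MMP7 differed by -1.93 and PCSK5 by -2.36. In Trk signalling IRS1 differed by -1.57 and MAPK3 by -1.19, and in p75 signalling NCSTN by -1.19 and MAGED1 by -0.93. Among the responsive genes VGF differed by -2.74 and FOS by -1.60, and among other neurotrophic factors MANF by -1.40 and IL6ST by -0.57. The shBMAL1 changes of MAGED1 (0.10), MAPK3 (0.15) and NCSTN (0.17) were small beside their shARNT changes. BDNF is not among these genes, since it was higher in both depletions.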

How the results depend on the processing

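The rise of BDNF in shBMAL1 kept its direction and call under every alternative run, with log2 fold changes of 3.48 to 3.87 when 1 library was left out and 3.70 to 3.75 under other scaling, DESeq2, no filter, halved counts, a minimum fold of 1.5 and the 6 libraries compared. Summing BDNF with BDNF-AS, an alternative chosen after the data were seen, gave 1.63 in shBMAL1 and 2.13 in shARNT. Without 1 library BDNF was 3.96 to 4.35 in shARNT and 0.37 to 0.57 between the depletions.

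Replicate numbers did not pair the libraries as a whole. Same-numbered libraries correlated at -0.04 to 0.07 and the others at -0.08 to 0.09. In both other groups at once, 0 of 9 correlated best with its own number. Within a single other group some did, such as replicate 3 of shBMAL1 and of shARNT with each other. With the replicate number as a block BDNF was 3.70 in shBMAL1 (adjusted p = 3.4e-11), and no named gene lost its call.

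A minimum fold of 1.5 lowered the list counts to 12 higher and 9 lower in shBMAL1, 19 and 39 in shARNT, and 16 and 39 between the depletions, because it asks for a larger change. Near BDNF it left 1 higher in shBMAL1, 0 in shARNT, and 1 higher and 1 lower between the depletions. Without the filter 1 gene near BDNF was lower in shARNT, and under library size alone 1 in place of 2 was lower between the depletions. Leaving out 1 library gave 38 to 42 higher and 40 to 43 lower list genes in shBMAL1, 38 to 43 and 57 to 59 in shARNT, and 38 to 41 and 56 to 59 between the depletions. Near BDNF it gave 3 to 3 higher and 0 to 0 lower in shBMAL1, 4 to 5 and 0 to 0 in shARNT, and 3 to 4 and 2 to 2 between the depletions.

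Library size alone turned IL6ST in shARNT to 0.10 and NTF4 between the depletions to 0.16, and leaving out 1 library at a time NTF4 ranged from -0.08 to 0.03 there. It raised the share of higher calls over all genes from 49.6% to 60.5% in shARNT. Of 125 single-gene values, 84 kept direction and call under all alternatives, and 40 lost their call under the minimum fold. For the 5 members other than BDNF depth is the limit, at 18 counts or fewer per library.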
